A study of Mus musculus with 4 samples.

Results

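The genes of the mitochondrial ribosome were examined in peak lists of open chromatin from mouse macrophages. The members are the protein-coding mouse genes whose symbol is Mrpl or Mrps followed by a number and an optional letter, and 78 of the 21883 protein-coding genes of the RefSeq annotation of GRCm38.p6 carry such a symbol. Of these, 49 are Mrpl genes, named for the large subunit, and 29 are Mrps genes, named for the small subunit. They lie on 17 chromosomes, with 11 members on chromosome 11, and 6 pseudogenes with such symbols were left out.

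The mitochondrial ribosome translates the few proteins that the mitochondrial genome encodes, all of them subunits of the oxidative phosphorylation complexes. Its RNA comes from mitochondrial DNA, whereas every one of its proteins is encoded in the nucleus, made in the cytosol and imported. Macrophages that receive interleukin-4 (IL-4) take on the alternatively activated state, which is known for its reliance on mitochondrial respiration.

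The assay was ATAC-seq. In it, the Tn5 transposase cuts accessible DNA and attaches sequencing adapters to it. Libraries came from 50000 macrophages each, grown from C57BL/6 bone marrow for 5 days in medium with 10% M-CSF, the growth factor of macrophages. Donor mice were wild-type (WT) or Slc6a8-/y (KO), a deletion of the creatine transporter's gene on the X chromosome. The labels name no Cre driver for this allele. The study asked how accessibility changes during polarization of macrophages that lack creatine.

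The 4 groups were WT untreated, WT IL-4, KO untreated and KO IL-4, with 1 library per group and a dose of 10 ng/mL IL-4 given for 6 h. Values in this order are given below as the 4 libraries in order. No difference below can be set against the spread between replicates, and each comparison is between these libraries and not between the conditions. The lists held 17339 peaks (WT untreated), 13714 (KO untreated) and 10443 (KO IL-4), that of WT IL-4 was the shortest, and the read depth behind them is unknown. The nearest peak to an end of Slc6a8 lay 33460 to 33680 bp away in the 4 libraries, so the targeted gene gives no check of the genotype labels. Of 12 macrophage marker genes, 9, 4, 6 and 4 had a peak within 1 kb of an end. Of 6 neutrophil markers 1 had such a peak in WT untreated and none had one in the other libraries, 1 of 5 T cell markers had one in each library, and 1 of 4 B cell markers had one in WT untreated alone. None of the erythroid, fibroblast, mast cell or hepatocyte markers had one in any library. The macrophage markers thus moved with list length as the members did, and the part of cell makeup in the results was not tested.

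The start regions of 7 members carry the patterns described below, and up to 250 bases before the transcription start are shown for each. They are given 5′ to 3′ on the strand of the gene, from RefSeq (GRCm38.p6, the coordinates of mm10), and shortened where another gene's transcript begins. Capitals mark exact matches on either strand to GCGCANG, the core of the site of NRF1 (nuclear respiratory factor 1), to CCGGAAG, a site of ETS factors such as GABPA, or to AGATGGC, a site of YY1. Mrps14 (chr1:160194965-160195214, plus strand), Mrpl17 (chr7:105811088-105811337, minus strand) and Mrpl32 (chr13:14613038-14613241, minus strand) had the highest median ranks among members with a peak in all 4 libraries. Mrps11 (chr7:78783090-78783130, plus strand) is separated from Mrpl46 by only this stretch of 41 bases, from which both genes start in opposite directions. Mrps22 (chr9:98601680-98601929, minus strand) had a peak in every library except WT IL-4. Mrps24 (chr11:5707702-5707951, minus strand) had one in WT IL-4 alone. Mrps25 (chr6:92184024-92184273, minus strand) had none.
Mrps14: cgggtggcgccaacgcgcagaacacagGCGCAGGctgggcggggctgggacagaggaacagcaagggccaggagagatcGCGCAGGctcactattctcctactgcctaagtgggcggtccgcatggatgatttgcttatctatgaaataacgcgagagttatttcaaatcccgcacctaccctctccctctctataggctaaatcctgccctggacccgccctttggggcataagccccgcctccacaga
Mrpl17: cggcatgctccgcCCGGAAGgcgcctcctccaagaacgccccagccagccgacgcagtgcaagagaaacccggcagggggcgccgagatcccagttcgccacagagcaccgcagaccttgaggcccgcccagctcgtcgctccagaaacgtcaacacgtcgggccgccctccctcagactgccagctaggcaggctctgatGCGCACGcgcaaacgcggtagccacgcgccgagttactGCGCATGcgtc
Mrpl32: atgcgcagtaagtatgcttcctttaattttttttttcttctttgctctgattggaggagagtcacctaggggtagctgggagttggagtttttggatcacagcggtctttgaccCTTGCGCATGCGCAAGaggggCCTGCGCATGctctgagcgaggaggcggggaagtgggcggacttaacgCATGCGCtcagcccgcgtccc
Mrps11: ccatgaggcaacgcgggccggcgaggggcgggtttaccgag
Mrps22: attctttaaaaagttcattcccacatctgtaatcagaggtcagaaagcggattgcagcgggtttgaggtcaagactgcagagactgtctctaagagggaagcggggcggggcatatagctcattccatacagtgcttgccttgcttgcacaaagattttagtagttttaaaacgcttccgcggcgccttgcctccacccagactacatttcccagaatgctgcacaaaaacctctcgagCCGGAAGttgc
Mrps24: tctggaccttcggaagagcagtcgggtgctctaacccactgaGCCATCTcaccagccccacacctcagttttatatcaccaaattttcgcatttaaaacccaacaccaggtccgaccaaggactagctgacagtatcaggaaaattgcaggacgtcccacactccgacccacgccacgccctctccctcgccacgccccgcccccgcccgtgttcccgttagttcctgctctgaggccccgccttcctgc
Mrps25: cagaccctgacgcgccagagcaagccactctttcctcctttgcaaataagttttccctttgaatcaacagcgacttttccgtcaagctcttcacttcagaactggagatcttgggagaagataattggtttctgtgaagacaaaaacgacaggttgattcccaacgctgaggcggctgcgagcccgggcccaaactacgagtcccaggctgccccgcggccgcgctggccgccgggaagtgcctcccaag

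An edge peak was a peak within 1 kb of either end of the gene's span. In WT untreated, 63 of the 78 members had one (80.8%), against 38.2% of all protein-coding genes. In WT IL-4 there were 43 (55.1%, against 28.3%), in KO untreated 51 (65.4%, against 34.8%), and in KO IL-4 42 (53.8%, against 29.0%). The members' share was higher than that of all genes in each library. The order of the libraries followed the lengths of the lists except between the IL-4 libraries, where the longer list held 1 member fewer.

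When each list was reduced to its highest-scoring peaks, as many as the list of WT IL-4 holds, so that all were equally long, 42, 43, 41 and 42 members had an edge peak in the same order. All protein-coding genes gave 29.3%, 28.3%, 29.8% and 28.3%. The excess of the untreated libraries over the IL-4 libraries was therefore not seen among the members at equal list length. The lowest score left in the equally long lists was 89.57 for WT untreated, 50.0 for WT IL-4, 67.78 for KO untreated and 52.2 for KO IL-4, so the members that dropped out of the untreated lists were those with peaks at or under 89.57 and 67.78.

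Other gene groups served for comparison. The cytosolic ribosomal protein genes, which build the ribosome outside mitochondria, had an edge peak in 68, 46, 66 and 49 of 83 genes. The genes for nuclear-encoded subunits of oxidative phosphorylation (OXPHOS) had one in 68, 47, 54 and 47 of 77. The mitochondrial ribosomal genes stood beside the OXPHOS genes in that KO untreated held fewer of them than WT untreated, 51 against 63 and 54 against 68, whereas the cytosolic ribosomal genes differed by 2 genes. At equal length KO untreated and WT untreated held 41 and 42 of the mitochondrial ribosomal genes, 52 and 49 of the OXPHOS genes, and 56 and 52 of the cytosolic ribosomal genes.

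**Figure D1:**
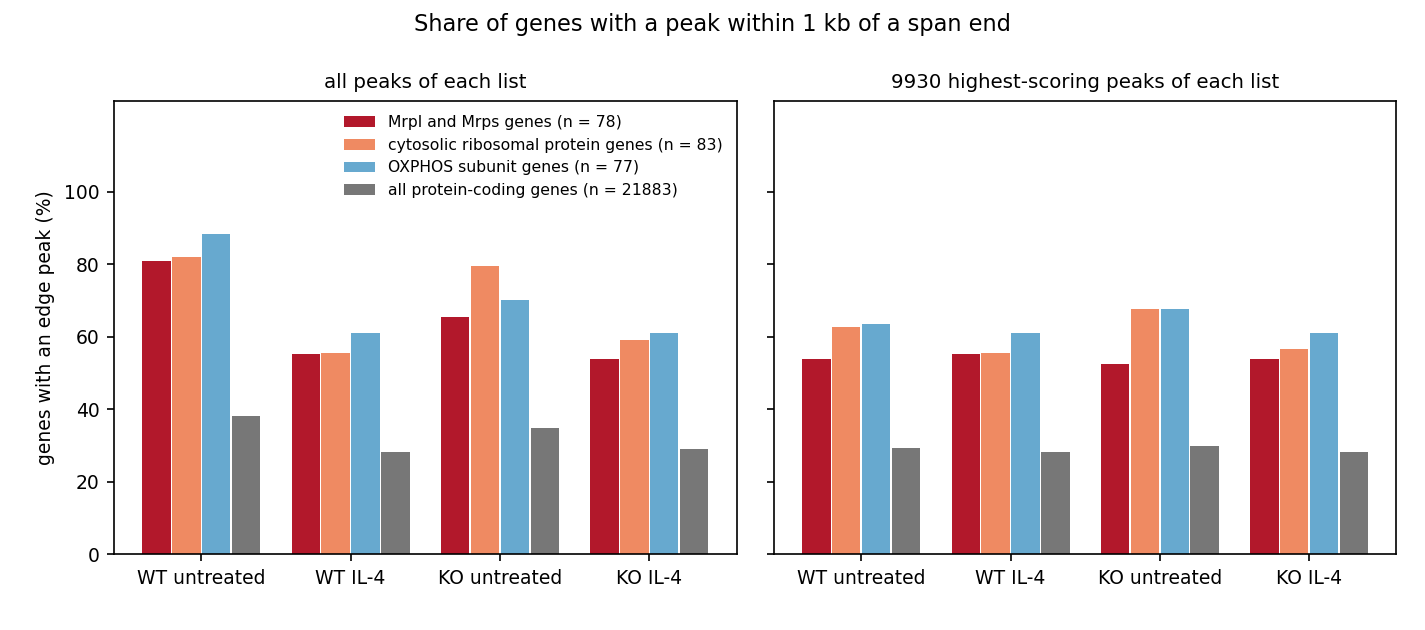
Share of genes with an edge peak (percent, vertical axis) in each library (horizontal axis) for the 78 Mrpl and Mrps genes, the cytosolic ribosomal protein genes, the OXPHOS subunit genes and all protein-coding genes, with all peaks at left and lists of equal length at right. The bars of the Mrpl and Mrps genes fall from 80.8% to 53.8% with all peaks and lie between 52.6% and 55.1% at equal list length.

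The rank of a peak was the percentile of its score within its own list, from 0 for the lowest to 100 for the highest, and a gene took its best edge peak. The members' median percentiles were 56.1, 55.5, 68.4 and 62.1 for the 4 libraries in order. All genes with an edge peak had medians of 70.6, 64.2, 67.7 and 63.4. At equal list length the members' medians were 56.8, 55.5, 58.6 and 60.1, against 63.2, 64.2, 63.3 and 62.7 for all such genes. The members' median was thus below that of all genes in every library at equal length, whereas with all peaks it was above it in KO untreated. The spread among members was wide in every library, from 5.9 to 99.5 in WT untreated and from 7.2 to 95.8 in KO IL-4.

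An edge peak was present in all 4 libraries at 31 members, which is 39.7% of the 78 and 47.7% of the 65 with an edge peak anywhere. For all protein-coding genes these shares were 22.9% and 55.0%. A further 8 members lacked an edge peak in KO IL-4 alone, 6 lacked one in WT IL-4 alone, 8 had one in WT untreated alone and 13 had none in any library. Of the members with an edge peak anywhere, the first 3 of these groups were 12.3%, 9.23% and 12.3%, against 6.58%, 8.06% and 8.36% of all such genes, and no edge peak was listed at 16.7% of the members and 58.3% of all genes.

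**Figure D2:**
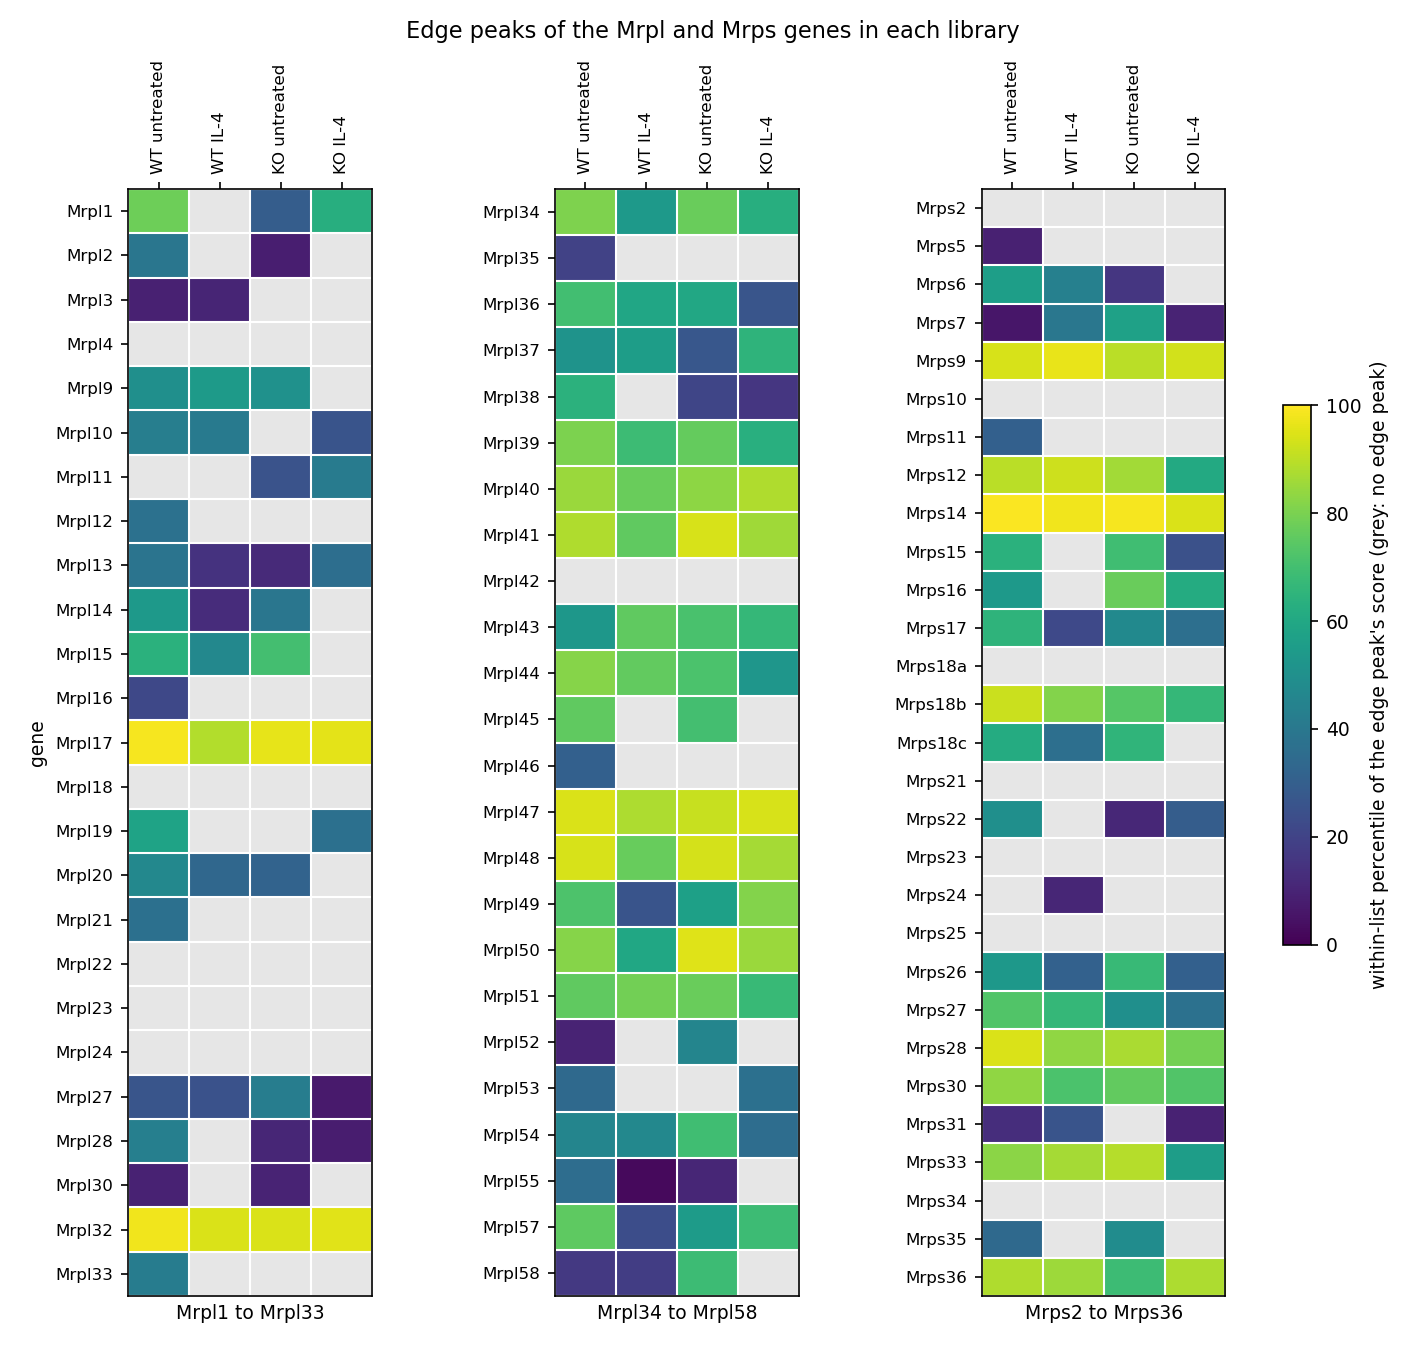
Within-list percentile of the best edge peak (colour, 0 to 100) of each of the 78 members (rows, in 3 columns of genes) in the 4 libraries (tile columns), with grey where no edge peak was listed. The 31 fully coloured rows include Mrps14, Mrpl17 and Mrpl32 near 100, and 13 rows are grey throughout.

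Among the 31 members, Mrps14, the counterpart of bacterial ribosomal protein S14 in the small subunit, ranked highest. Its peak had the percentiles 99.5, 97.7, 98.5 and 94.4 and the scores 670.13, 297.41, 449.52 and 238.0 for the 4 libraries in order. The peak covered the start in every library, as chr1:160194855-160195529 in WT untreated. Scores rank peaks within a list only, so the fall of the score from the longer to the shorter lists is no measure of change.

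Mrpl17, the counterpart of bacterial L17, had percentiles of 98.6, 88.6, 96.3 and 95.8. Mrpl32, whose protein is matured by the mitochondrial m-AAA protease before it joins the large subunit, had 97.7, 94.4, 94.4 and 95.5. Its peak also lies within 1 kb of an end of Psma2, a proteasome subunit gene. Mrps14, Mrpl17 and Mrpl32 were the members with the highest median percentiles. Mrps9 (93.9, 96.8, 89.7 and 93.1), Mrpl47 (94.2, 87.5, 91.7 and 93.9) and Mrpl48 (94.1, 76.9, 93.5 and 86.7) followed, in the same order of libraries. WT IL-4 gave the lowest of the 4 values for Mrpl17, Mrpl47 and Mrpl48 and the highest for Mrps9.

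At the other end of the 31, Mrps7 had percentiles of 5.9, 39.8, 57.1 and 9.9, Mrpl13 had 38.4, 14.5, 12.1 and 36.1, and Mrpl27 had 26.3, 25.2, 42.2 and 7.2. These peaks stood close to the lower end of at least 1 list. Mrps12, whose protein lies at the decoding centre, had 89.6, 92.3, 86.0 and 60.6, the lowest in KO IL-4. Mrps36, also described as a component of the alpha-ketoglutarate dehydrogenase complex, had 87.9, 85.2, 68.4 and 87.7.

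Members were also divided by whether their protein belongs to a ribosomal protein family that bacteria share, a division added after the values were seen and therefore given without a test. Members outside these families are called without a bacterial counterpart, which refers to ribosomal proteins only. Among the Mrpl genes, an edge peak in all 4 libraries was present at 12 of 19 without a bacterial counterpart (63.2%), such as Mrpl39, Mrpl44 and Mrpl50. It was present at 7 of 30 genes of shared families (23.3%), among them Mrpl17, Mrpl32 and Mrpl47. At equal list length the counts were 11 of 19 and 5 of 30. Among the Mrps genes, grouped by symbol and not by their place in the ribosome, the shares lay closer together, at 5 of 11 (45.5%) and 7 of 18 (38.9%).

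The ends of other genes moved with this difference for the Mrpl genes but not for the Mrps genes. Another protein-coding gene ended within 1 kb at 14 of the 19 genes without a bacterial counterpart and at 16 of the 30 of shared families. Among the members with such a neighbour, 11 of 14 and 6 of 16 had an edge peak in all 4 libraries, and among those without one, 1 of 5 and 1 of 14 did. Among the Mrps genes the relation ran the other way. The counts were 1 of 4 and 3 of 10 with a neighbour, and 4 of 7 and 4 of 8 without one. The part of neighbouring genes in the difference was not tested.

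**Figure D3:**
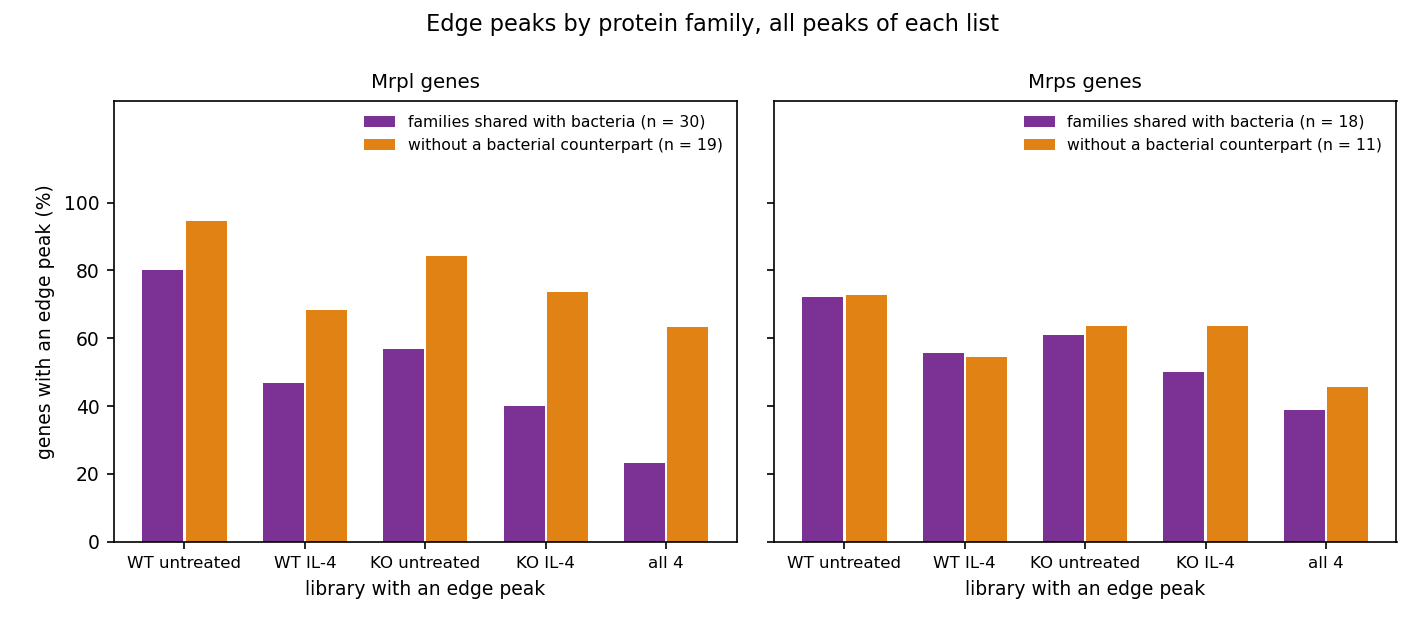
Share of members with an edge peak (percent, vertical axis) in each library and in all 4 (horizontal axis), with Mrpl genes at left and Mrps genes at right, each divided into families shared with bacteria and proteins without a bacterial counterpart. For the Mrpl genes the bars for all 4 libraries stand at 23.3% and 63.2%, and for the Mrps genes at 38.9% and 45.5%.

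Neighbouring genes were more frequent beside the members than beside genes at large. Another protein-coding gene had an end within 1 kb of an end of 44 of the 78 members (56.4%), against 24.8% of all protein-coding genes. A gene on the opposite strand began within 1 kb upstream of 25 of the 69 members with a start in the RefSeq table (36.2%), against 8.57%. Of the members with an edge peak in all 4 libraries this held for 57.1%, of those with one in 1 to 3 libraries for 26.7%, and of those with none for 9.09%. All protein-coding genes showed the same order at 21.7%, 12.2% and 1.86%.

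Because of these neighbours, many peaks belonged to more than 1 gene. In WT untreated, 37 of the 63 members with an edge peak (58.7%) shared a peak with another gene, against 31.3% of all genes with an edge peak, and in the other libraries the members' share was 54.9% to 61.9%. Mrpl43 shared its peak with Twnk, the helicase that replicates mitochondrial DNA, and Mrps12 with Sars2, the mitochondrial seryl-tRNA synthetase. Mrpl47 and Mrpl36 shared theirs with Ndufb5 and Ndufs6, both subunits of respiratory complex I, and Mrpl49 with Fau, which encodes a cytosolic ribosomal protein. Mrpl40 shared its peak with Hira, a histone chaperone gene. For such pairs an edge peak cannot be given to 1 of the genes.

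Mrpl46 and Mrps11 were the only members that shared a peak with each other. It lay over the 41 bases between their starts (chr7:78782790-78783223, percentile 30.6) and was listed in WT untreated alone. It counts for both genes in every total here, so these 2 members are not independent. Members without another gene end within 1 kb still had an edge peak more often than all genes of that kind, at 24, 18, 20 and 14 of 34 (70.6%, 52.9%, 58.8% and 41.2%) against 30.6%, 22.0%, 27.8% and 22.9%. Among genes with a neighbour the shares were 88.6%, 56.8%, 70.5% and 63.6% for the members and 61.1%, 47.5%, 55.9% and 47.6% for all.

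Most of the peaks lay on transcription starts, as for all genes (82.7% to 85.2%). Among members with a start in the table, the best edge peak covered a start in 50 of 56 in WT untreated (89.3%), and in 34 of 39 (87.2%), 39 of 45 (86.7%) and 35 of 37 (94.6%) in the other libraries in order. Its centre lay a median of 34, 63, 66 and 62 bp before the start. Mrpl36 was an exception, because its best peak, shared with Ndufs6, lay at the end of the span that precedes the start given in the table in all 4 libraries, and a peak at that start (chr13:73330806-73331261, percentile 39.6) was listed in WT untreated alone. Mrpl58, whose protein is a peptidyl-tRNA hydrolase that rescues stalled mitochondrial ribosomes, had its best peak beyond its far end, with a peak at the start in KO untreated alone (chr11:115403633-115404096, percentile 35.3).

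No edge peak was listed for 13 members, and they fall into different cases. Mrpl18, Mrpl22, Mrpl24, Mrps2 and Mrps23 had a peak over an annotated start that lies inside the gene span, more than 1 kb from its ends. For Mrpl18 this peak was present in all 4 libraries with percentiles of 96.7, 94.0, 92.6 and 91.6, among the highest of any member. Its nearest edge lay 1112 to 1223 bp from an end, just outside the limit. Tcp1, on the opposite strand, starts within 1 kb upstream of the Mrpl18 start, so the peak cannot be given to 1 of the genes. For Mrps23 the peak at the start was present in every library except WT IL-4 (72.6, 54.4 and 29.9).

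The other cases were weaker or empty. Mrpl22, whose protein lines the exit tunnel of the large subunit, had the peak in both untreated libraries (48.0 in WT and 46.8 in KO). Mrpl24 had it in WT untreated (30.0) and KO IL-4 (13.1), and Mrps2 in WT untreated (28.0). Mrpl23, Mrpl42, Mrps10, Mrps18a, Mrps21 and Mrps25 had no peak within 1 kb of a start in any library, and the nearest lay 6968 bp (Mrpl42) to 61922 bp (Mrpl23) from a start. Mrpl4 and Mrps34 also had no edge peak. Among members with an edge peak, the farthest lay 751 bp (Mrps31 in WT untreated), 704 bp and 657 bp (Mrps31 in WT IL-4 and KO IL-4) and 594 bp (Mrpl45 in WT untreated) from an end.

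Counted at annotated starts instead of span ends, 60, 38, 47 and 39 of 69 members had a peak in the 4 libraries in order. These are 87.0%, 55.1%, 68.1% and 56.5%, against 40.7%, 30.0%, 37.2% and 31.1% of the 17491 genes with a start. A peak at a start was present in all 4 libraries at 28 members and in none at 6.

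The next comparisons ask which members had an edge peak in 1 library and none in another. An edge peak is called lost when the first library has it and the second has none, and gained in the reverse case. Each library enters 2 of the 4 comparisons, so these are not independent of each other. No edge peak called lost or gained among the members with all peaks overlapped a peak of the other list, and none had a percentile above 77.8. The absence of overlap follows largely from the definition, because an overlapping peak would mostly lie within 1 kb of the same end.

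With IL-4 in WT macrophages, edge peaks were lost at 21 of the 63 members with one in WT untreated (33.3%), against 28.8% of all genes with one. They were gained at 1 of 43 (2.33%), against 4.13%. The member gained was Mrps24, the counterpart of bacterial S3, at a percentile of 10.8. At equal list length 8 of 42 were lost (19.0%, against 16.8%) and 9 of 43 gained (20.9%, against 14.0%), and 8 of these 9 had an edge peak in the complete WT untreated list that was left out when it was shortened. The 8 lost at equal length were all among the 21. The members' shares lay near those of all genes, so these counts alone do not set the members apart. The excess of losses over gains was not seen at equal length, in WT or in KO.

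These 8 members are Mrpl1, Mrpl19, Mrpl28, Mrpl38, Mrpl45, Mrps15, Mrps16 and Mrps22. Mrpl1, whose bacterial counterpart forms the mobile L1 stalk, had percentiles of 77.8 (WT untreated), 29.4 (KO untreated) and 62.6 (KO IL-4), and its nearest WT IL-4 peak lay 12203 bp from an end. Mrpl45, which links the large subunit to the inner membrane, had 75.6 in WT untreated and 70.0 in KO untreated and no edge peak with IL-4, where the nearest peaks lay 104919 bp (WT) and 105101 bp (KO) from an end. Mrps22, a small subunit protein without a bacterial counterpart, had 49.9, 11.2 and 29.3 in WT untreated, KO untreated and KO IL-4. All 8 except Mrpl19 had an edge peak in both untreated libraries, and all except Mrpl45 had one in KO IL-4.

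The remaining values of these 8 were of the same range. Mrpl38 had percentiles of 64.4, 20.8 and 15.7 in WT untreated, KO untreated and KO IL-4, Mrps15 had 63.7, 69.4 and 24.9, Mrps16 had 53.7, 77.1 and 61.6, and Mrpl28 had 43.1, 10.7 and 8.1. Mrpl19 had 57.9 in WT untreated and 37.0 in KO IL-4. The other 13 members lost with all peaks were Mrpl2, Mrpl12, Mrpl16, Mrpl21, Mrpl30, Mrpl33, Mrpl35, Mrpl46, Mrpl52, Mrpl53, Mrps5, Mrps11 and Mrps35, with percentiles from 9.1 to 41.9 in WT untreated. They include Mrpl12, the protein of the stalk that recruits translation factors, at 37.2.

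Loss was more frequent at low ranks, for the members and for all genes. Of the members with a WT untreated percentile under 50, 15 of 26 were lost (57.7%, against 66.2% of all such genes). Of those at 50 or more, 6 of 37 were lost (16.2%, against 13.5%). In KO with IL-4 the shares were 44.4% against 53.4% under 50 and 15.2% against 8.97% at 50 or more. For KO untreated against WT untreated they were 46.2% against 41.6% and 2.7% against 4.24%. For KO IL-4 against WT IL-4 they were 47.4% against 33.6% and 4.17% against 5.47%.

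With IL-4 in KO macrophages, 13 of 51 members were lost (25.5%, against 22.7%) and 4 of 42 gained (9.52%, against 7.23%). At equal length 9 of 41 were lost (22.0%, against 17.5%) and 10 of 42 gained (23.8%, against 13.1%), and 6 of these 10 had an edge peak in the complete KO untreated list that was left out when it was shortened. The 4 gained both ways were Mrpl19 (percentile 37.0), Mrpl53 (36.9), Mrpl10, the protein at the base of the stalk (26.1), and Mrps31 (9.4). Their peaks in KO IL-4 all ranked in the lower part of the list.

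The 9 members lost both ways in KO were Mrpl9, Mrpl14, Mrpl15, Mrpl20, Mrpl45, Mrpl52, Mrpl58, Mrps18c and Mrps35. The highest of them in KO untreated were Mrpl15 and Mrpl45, both at a percentile of 70.0, followed by Mrpl58 at 68.7, Mrps18c at 65.6 and Mrpl9 at 50.7. A peak lay 1854 bp from an end of Mrpl15 in KO IL-4, outside the limit of 1 kb. For Mrpl58 the peak at this rank lay beyond the far end of the gene, as described above. The 4 lost with all peaks alone were Mrps6, Mrpl55, Mrpl30 and Mrpl2, at 15.9 or lower.

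Both genotypes lost an edge peak with IL-4 at Mrpl2, Mrpl30, Mrpl45, Mrpl52 and Mrps35, which are 5 of the 21 members lost in WT (23.8%) and 5 of the 13 lost in KO (38.5%), against 30.4% and 42.4% of all genes lost. At equal length Mrpl45 alone was lost in both. It made up 12.5% of the members lost in WT and 11.1% of those lost in KO, against 21.8% and 20.6% of all genes lost. None was gained in both genotypes with all peaks, and Mrpl10, Mrpl13 and Mrps31 were at equal length. These are 5.45% of the members with an edge peak in any list of that length, against 1.82% of all such genes. Each of them had an edge peak in the complete WT untreated list that was left out when it was shortened. With all peaks Mrpl19 and Mrpl53 were lost in WT and gained in KO, so that each had an edge peak in WT untreated and KO IL-4 and in neither of the other libraries. They are 3.08% of the members with an edge peak anywhere, against 1.94% of all such genes. At equal length Mrpl19, Mrpl28, Mrpl38 and Mrps22 were lost in WT and gained in KO (7.27%, against 2.11%). Mrpl58 was gained in WT and lost in KO (1.82%, against 2.18%). Mrpl28, Mrpl38 and Mrps22 had an edge peak in the complete KO untreated list that was left out when it was shortened. The same held for Mrpl58 in the WT untreated list, so for these members the gain came with the shortening.

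KO untreated against WT untreated gave 13 of 63 members lost (20.6%, against 15.1%) and 1 of 51 gained (1.96%, against 6.89%). The member gained was Mrpl11, another protein of the stalk base, which had an edge peak in both KO libraries (percentiles 25.6 and 41.6) and in neither WT library, where the nearest peaks lay 33608 and 33446 bp away. At equal length 6 of 42 were lost (14.3%, against 12.1%) and 5 of 41 gained (12.2%, against 13.7%). Of these, 5 of the 6 and 5 of the 5 had an edge peak in the other complete list.

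Mrpl19 alone was lost both ways between the untreated libraries, from a percentile of 57.9 in WT to no peak nearer than 159232 bp in KO. The other 12 lost with all peaks had percentiles from 9.1 to 42.7 in WT untreated. The highest of them were Mrpl10 (42.7), Mrpl33 (41.9), Mrpl12 (37.2), Mrpl21 (36.8) and Mrpl53 (34.0). None of the 12 was in the WT untreated list of equal length, and Mrpl10 had its border score of 89.57.

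KO IL-4 against WT IL-4, the pair of lists closest in length, gave 10 of 43 members lost (23.3%, against 15.6%) and 9 of 42 gained (21.4%, against 17.6%). At equal length the same 10 and 9 members were called, against 16.7% and 16.6% of all genes. The 10 lost were Mrpl3, Mrpl9, Mrpl14, Mrpl15, Mrpl20, Mrpl55, Mrpl58, Mrps6, Mrps18c and Mrps24, with percentiles in WT IL-4 from 2.7 (Mrpl55) to 54.6 (Mrpl9). The 9 gained were Mrpl1, Mrpl11, Mrpl19, Mrpl28, Mrpl38, Mrpl53, Mrps15, Mrps16 and Mrps22, with percentiles in KO IL-4 from 8.1 (Mrpl28) to 62.6 (Mrpl1).

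Many of these 19 members had an edge peak in both untreated libraries. Of the 10 lost, 8 did (80.0%, against 62.0% of all genes lost), the exceptions being Mrpl3 and Mrps24. Of the 9 gained, 6 did (66.7%, against 66.1% of all genes gained), the exceptions being Mrpl11, Mrpl19 and Mrpl53. By family, 9 of 24 members of shared families were lost between the IL-4 libraries (37.5%), against 15.6% of all genes. Outside these families 1 of 19 was lost (5.26%), namely Mrpl58. For gained edge peaks the counts were 6 of 21 (28.6%) and 3 of 21 (14.3%), against 17.6%. In the other comparisons the lost shares of the families lay closer together. They were 37.8% and 26.9% in WT with IL-4, 32.1% and 17.4% in KO with IL-4, and 27.0% and 11.5% between the untreated libraries. All genes gave 28.8%, 22.7% and 15.1% there.

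**Figure D4:**
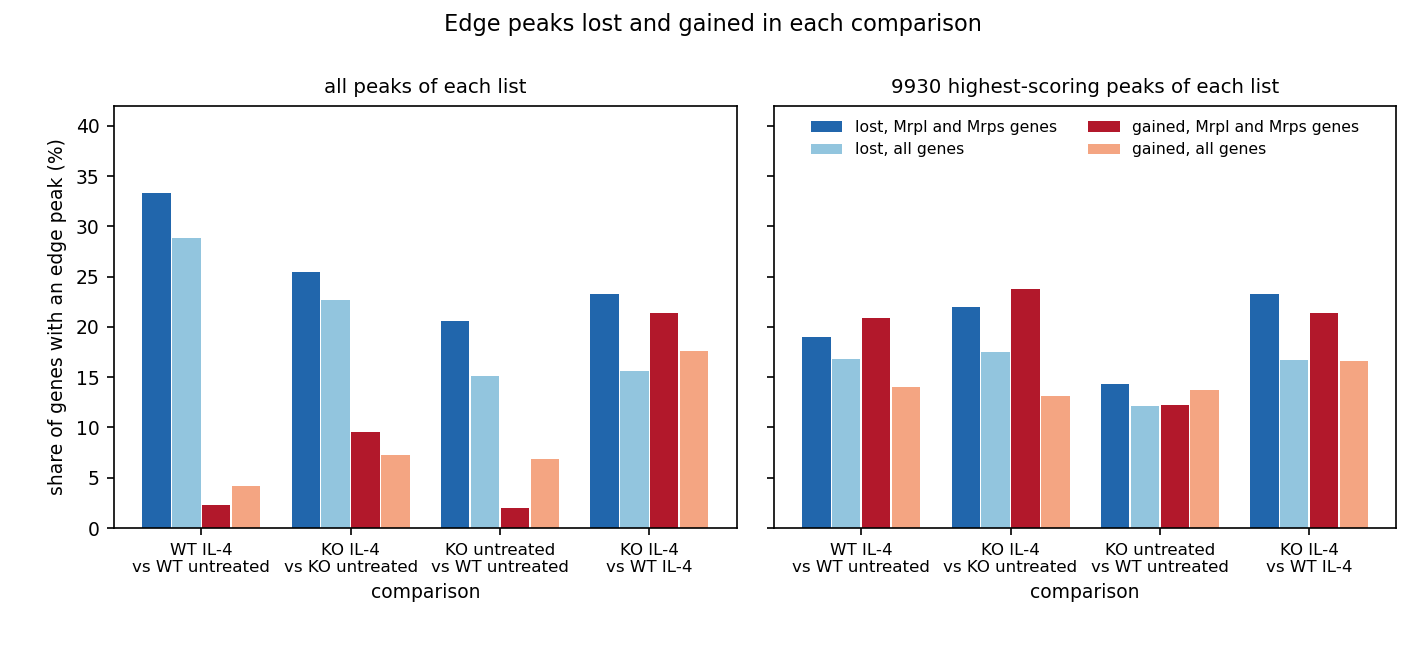
Share of genes whose edge peak was lost, of those with one in the first library, or gained, of those with one in the second (percent, vertical axis), in the 4 comparisons (horizontal axis), for the Mrpl and Mrps genes and all protein-coding genes, with all peaks at left and lists of equal length at right. The members' lost bars stand above those of all genes in every comparison on both sides, as at 33.3% against 28.8% for WT IL-4. In the counts divided by rank, given in the text, the members' lost share was below that of all genes in some comparisons. The gained bars fall from 20.9% at equal length to 2.33% with all peaks in WT.

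Genes that act with the Mrpl and Mrps genes were counted in the same way. Of the 5 subunits with other symbols, Aurkaip1 had an edge peak in all 4 libraries (percentiles 65.5, 69.9, 62.7 and 43.5). Dap3, a GTP-binding protein of the small subunit, had one in the untreated libraries only (14.8 and 40.4). Ptcd3, a pentatricopeptide repeat protein of the small subunit, had one in every library but WT IL-4 (19.9, 24.0 and 12.3), and Chchd1 and Gadd45gip1 had none.

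Of 17 mitochondrial translation factors, 11, 12, 11 and 8 had an edge peak in the 4 libraries in order. The elongation factor genes Gfm1 and Tsfm were the 2 gained with IL-4 in WT (16.7%, against 4.13% of all genes). Tsfm was 1 of 4 lost with IL-4 in KO (36.4%, against 22.7%). At equal list length the gains of Gfm1 and Tsfm in WT were called and the loss of Tsfm in KO was not. The share gained among all genes in WT was 14.0% at that length. Of 22 genes for tRNA synthetases and related enzymes of mitochondria, 19, 16, 18 and 12 had one, and 14, 16, 15 and 12 at equal list length. With IL-4 and all peaks, 3 were lost in WT (15.8%, against 28.8% of all genes) and 6 in KO (33.3%, against 22.7%). None was gained. Of 26 assembly factors, 19, 13, 16 and 15 had one, and of 17 genes of mitochondrial DNA replication and expression, 14, 10, 13 and 10. Among 13 nuclear regulators of mitochondrial genes, 9, 7, 8 and 8 had one, and Nrf1 itself was lost with IL-4 in WT and lost in KO untreated against WT untreated, calls that were not made at equal list length.

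The promoters of the members held sites of NRF1, ETS factors and YY1 more often than promoters at large. Windows of 300 bases, from 250 before to 50 after each start, were searched on both strands for exact matches; 69 of the 78 members matched the table, with 75 windows. GCGCANG, the NRF1 core, was in 42.7% of the members' windows and 21.3% of all 21262 windows. CCGGAAG was in 34.7% against 11.6%, and AGATGGC in 16.0% against 6.01%. CCGGAAG and AGATGGC can share bases, since the last letters of the first begin the second, and the NRF1 core can overlap its own reverse complement, as in the Mrpl32 start region shown above.

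All genes with an edge peak in all 4 libraries were closer to the members in CpG content. Over their 5175 windows the shares were 33.2%, 21.5% and 7.85%, still under those of the members. GGGCGG, a site of SP and KLF factors, was less frequent in the members' windows (52.0%) than in these (67.9%) and near the 46.2% of all. CACGTG, the E-box, was in 9.33% of the members' windows, 7.84% of all and 10.5% of those of the genes with a peak in all 4 libraries. TATAAA, the TATA box, was in 6.67%, 12.6% and 5.58%, and CCAAT, a site of NFY, in 40.0%, 38.2% and 47.7%. The median GC content was 58.7% for the members, 56.3% for all and 61.7% for the genes with a peak in all 4 libraries, and the median number of CpG was 21, 13 and 22.

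The OXPHOS and the cytosolic ribosomal genes differed from the members in some motifs and not in others. The NRF1 core was in 44.9% of the windows of the OXPHOS genes and 31.1% of those of the cytosolic ribosomal genes, CCGGAAG in 24.6% and 35.1%, and AGATGGC in 14.5% and 14.9%.

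The NRF1 core was in 48.4% of the windows of members with an edge peak in all 4 libraries and 39.4% of those with one in 1 to 3 libraries. For CCGGAAG these shares were 38.7% and 27.3%, and for GGGCGG 64.5% and 48.5%. Over the 11 windows of members with no edge peak, the shares were 36.4% (NRF1 core), 45.5% (CCGGAAG) and 27.3% (GGGCGG). The share of CCGGAAG was thus highest where no edge peak was listed. Of the 5 members without an edge peak that had a peak at a start inside the span, 2 held the NRF1 core and 3 held CCGGAAG. Of the 6 without a peak at a start, 2 held the NRF1 core, 2 CCGGAAG and 2 AGATGGC. A match describes the letters of a window and shows no binding.

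**Figure D5:**
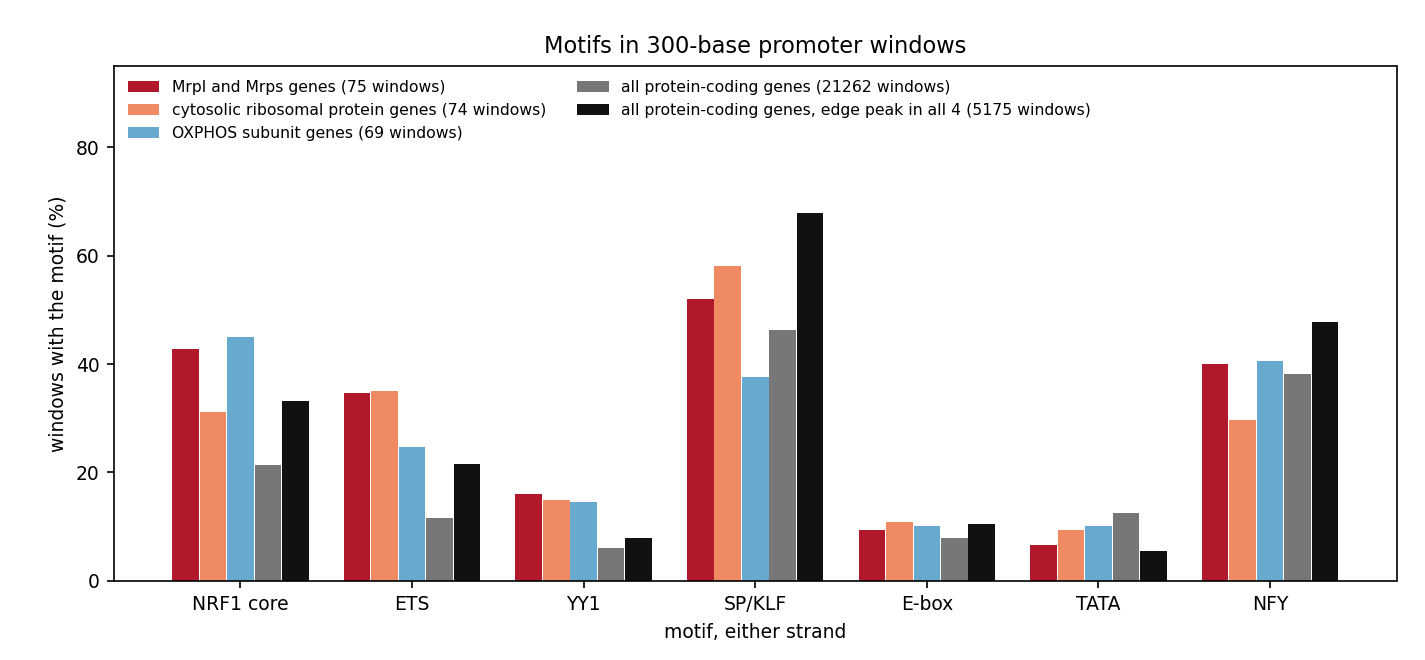
Share of 300-base promoter windows with an exact match on either strand (percent, vertical axis) to each of 7 motifs (horizontal axis), for the Mrpl and Mrps genes, the cytosolic ribosomal protein genes, the OXPHOS subunit genes, all protein-coding genes and all genes with an edge peak in all 4 libraries. The members' bars exceed both bars of all genes for the NRF1 core (42.7%), the ETS site (34.7%) and the YY1 site (16.0%).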

How the data were processed

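Peak lists from 4 ATAC-seq libraries, 1 per group, were used. Per the submitters' processing notes, Bowtie2 2.2.5, MACS 1.4.2 and HOMER were used with the build mm10, and parameters are not given in the sources used here. The deposited score, in the fifth column, comes from the authors' peak calling. No header gives its unit, and it served for ranks and limits inside 1 list. How precisely the presence of a peak is known cannot be given without the read depth. List length and scores move with depth.

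Gene spans, starts and promoter windows came from RefSeq tables of GRCm38.p6. The percentile of a peak is its midrank among the scores of its list. Genes with an edge peak in only 1 of 2 libraries were counted as lost or gained. No test was made, because no group had a second library.

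Members and lists were chosen with earlier results of these data known. Named are, per comparison, up to 6 lost and 6 gained members with the highest percentile, those called the same way with all peaks and with equally long lists, the 6 with the highest median percentile, up to 20 without an edge peak, and the 5 subunits with other symbols; further members were named after their values were seen. The division by protein family, the counts by rank and of shared peaks, and the peaks at starts inside spans, with their motifs, were also added after the values were seen. The Mrps18 genes were counted with the bacterial S18 family, Mrpl47 with L29, Mrpl55 with L31 and Mrps28 with S1. In the related gene lists 1 entry, Mtrfr, was not matched.

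Alternatives were lists of equal length, scores of 100 or more, edges of 500 bp and 2.5 kb, transcription starts only, calls by overlap of 1 bp, and no neighbouring gene end within 1 kb. Counts were made in Python 3.11.15 with pandas 2.3.3 and NumPy 2.4.6, and figures in Matplotlib 3.10.9. As a check of the code, edge peaks were removed from the WT untreated list, and 269 of 269 genes left without one were called lost. Those genes were defined with the same edge search, so this recovery was fixed in advance. A separate one-by-one search gave the same edge peaks for 300 of 300 genes.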

Additional observations from a re-analysis of the deposited data

Results flagged for a closer look

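Mrpl19 and Mrpl53 had edge peaks that moved in opposite directions with IL-4 in the 2 genotypes. For Mrpl19, the edge peak at percentile 57.9 in WT untreated had no counterpart in WT IL-4, whereas KO untreated had none and KO IL-4 had one at percentile 37.0. For Mrpl53 the percentiles were 34.0 in WT untreated and 36.9 in KO IL-4, again with none in the other libraries. The Mrpl53 edge peak was shared with Ccdc142 in both libraries that had it, so it cannot be given to 1 of the genes. An edge peak in WT untreated and KO IL-4 alone was found at 3.08% of the members with an edge peak anywhere and at 1.94% of all such genes. With 1 library per group, the difference between the genotypes was not tested. Mrpl19 had a second edge peak at its other end in the same 2 libraries (chr6:81958044-81958375 in WT untreated and chr6:81958069-81958409 in KO IL-4), which it shares with Gcfc2. At equal list length the gain of Mrpl53 in KO was still called but its loss in WT was not, since its WT untreated peak was not in the shortened list.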

How the results depend on the processing

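No paired analysis was possible because each group holds 1 library and no model was fitted. Of 100 recomputed values, 38 were flagged as moved and 62 were not, but the 62 are not all close to the value reported. At equal list length they include the members with an edge peak in WT untreated, 42 against 63, and in KO untreated, 41 against 51. They also include the members lost with IL-4 in KO, 9 against 13. The 62 include the calls by overlap, which could hardly differ from the main calls by their definition. The balance of losses and gains with IL-4 turned at equal list length, from 21 and 1 to 8 and 9 in WT and from 13 and 4 to 9 and 10 in KO. Between the IL-4 libraries it turned from 10 and 9 to 3 and 7 at scores of 100 or more. With lists of equal length, members lost were 8 (WT IL-4 vs WT untreated) and 6 (KO untreated vs WT untreated), members gained were 9 (WT IL-4), 10 (KO IL-4 vs KO untreated) and 5 (KO untreated vs WT untreated), and the median percentile was 58.6 (KO untreated) and 60.1 (KO IL-4). Scores of 100 or more left an edge peak at 39, 19, 32 and 23 members (WT untreated, WT IL-4, KO untreated, KO IL-4), medians of 52, 52.8, 48.9 and 48.1, gains of 0 in WT with IL-4, 2 in KO with IL-4 and 3 in KO untreated vs WT untreated, and 3 losses in KO IL-4 vs WT IL-4. An edge of 500 bp gave 2 gains in WT with IL-4 and 2 in KO untreated vs WT untreated, and medians of 57 in WT untreated and 57.4 in WT IL-4. An edge of 2.5 kb gave medians of 53.7 in WT untreated and 61.1 in KO IL-4. Transcription starts only gave medians of 53.7 in WT untreated, 63 in WT IL-4 and 67.4 in KO untreated, and 2 gains in KO untreated vs WT untreated. Edge peaks within 1 kb of no other gene end were present at 29, 18, 23 and 17 members in the order of libraries above. Over the 34 members without a neighbouring gene end, losses were 7 in WT with IL-4, 8 in KO with IL-4 and 5 in KO untreated vs WT untreated, and gains were 2 in KO with IL-4 and 3 in KO IL-4 vs WT IL-4. The cause of these shifts was not tested. Without replicates or read depth, a peak missing from a list is not shown to be closed chromatin.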
